A study of Mus musculus with 8 samples.

Results

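The genes described here encode 10 receptor subunits through which intestinal epithelial cells read cytokines of the immune system. They were taken by name from the gene table of an experiment on mouse intestinal organoids, as Il4ra, Il13ra1, Il10rb, Il17ra, Il17rc, Il22ra1, Ifngr1, Ifngr2, Ifnlr1 and Il6st, and all 10 were found among the 54532 listed genes. The rule goes by names and not by measured values. Gene expression was measured by 3′ mRNA sequencing in 4 libraries of control organoids and 4 libraries of organoids treated with RANKL, the ligand of the receptor RANK. Organoids of this kind are epithelial structures grown in Matrigel from isolated crypts, in a medium with EGF, Noggin and R-spondin, and hold no lamina propria. The labels name no strain, genotype, age or intestinal segment, no dose or duration of RANKL, and do not say whether the libraries of a group came from separate cultures or animals, so that p-values measure the spread between these libraries, which may be technical.

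Cytokine receptors of this kind work as pairs of chains. A ligand-binding chain and a second chain are brought together by the cytokine and pass the signal to JAK kinases and STAT transcription factors, or, for the IL-17 receptors, to the adaptor Act1 and TRAF6. Several chains are shared. IL-4Rα (Il4ra) pairs with IL-13Rα1 (Il13ra1) to bind IL-4 and IL-13, which act in type 2 immunity to helminths. gp130 (Il6st) serves the IL-6 family, IFN-γR1 and IFN-γR2 (Ifngr1 and Ifngr2) bind interferon-γ, and IL-17RA and IL-17RC (Il17ra and Il17rc) bind IL-17A and IL-17F. IL-10Rβ (Il10rb) is the shared second chain for IL-22Rα1 (Il22ra1), which binds IL-22, and for IFN-λR1 (Ifnlr1), which binds the type III interferons. IL-22 is known in the gut for inducing antimicrobial lectins, and interferon-λ for antiviral defence of the epithelium.

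Total counts ran from 583663 in control replicate 4 to 7807298 in control replicate 1, and from 613135 to 1923354 in the RANKL group. Levels are given in CPM, each library's counts divided by its TMM-scaled total. On the unscaled totals, 3 counts, the most that a count of 0 allows, are worth 0.384 to 5.14 CPM. These floors and the counting intervals cover counting error only. The labelled tissue was checked on 10 epithelial markers, whose summed level was 7338 to 8475 CPM in the control libraries and 6954 to 7610 CPM in the RANKL libraries, with 0 of the 10 higher and 4 lower (Krt18, Krt19 and Cldn7 among them). Of 10 immune markers, 0 had enough counts to test. Their sum was 3.44 to 8.87 CPM in control and 4.13 to 16.1 CPM in RANKL libraries, and Cd3e, Cd3g, Cd79a and Tyrobp were at 0 in all 8. Myeloid markers were detected at low levels. Csf1r had 93 counts in control and 30 in RANKL libraries (means of 5.29 and 4.95 CPM). Means rose from 0.43 to 2.19 CPM for Itgam, 0.36 to 2.02 CPM for Lyz2 and 0.16 to 1.19 CPM for Fcer1g. These rest on 5 to 10 counts per group, and the groups overlapped for all of these myeloid markers. Of 10 stromal markers, 2 were tested and Pdgfrb was higher with RANKL, also tested through the RANKL libraries alone. The stromal sum was 17.1 to 53.3 CPM against 32.4 to 48.4 CPM, with Dcn at 0. Markers of M cells, the epithelial cells over lymphoid follicles that RANKL is known to induce, moved with the treatment. Of 7 such markers, 6 were tested and all 6 were higher, of which Spib, Tnfaip2 and Sox8 were below the filter's 5.39 CPM in every control library and so were tested through the RANKL libraries alone. Their sum was 50.3 to 59.1 CPM in the control and 1834 to 2077 CPM in the RANKL libraries, and Gp2, a marker of mature M cells, was at 0. Among the other lineages, 1 of 7 stem cell markers was higher and 3 were lower, 3 of 7 enteroendocrine markers were higher, and 0 of 7 goblet cell markers passed in either direction. Over all genes tested, 13.6% were higher and 12.4% lower. The part of these markers in the receptor results was not tested, and in bulk libraries fewer cells of a type and less RNA per cell cannot be told apart.

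The promoters of 4 members are shown because the first pair, Il4ra and Il6st, belongs to the genes with the largest rises, and because the second pair, Ifngr2 and Il22ra1, held a match to the NF-κB motif searched. Capitals mark that match. The sequences are from RefSeq on GRCm38.p6, plus strand, and end at the base before the gene's start (the earlier of the RefSeq and GENCODE starts for Il4ra). Il4ra is shown at chr7:125552021-125552119, Il6st at chr13:112463820-112464069, Ifngr2 at chr16:91546809-91547058 and Il22ra1 at chr4:135727909-135728158.
Il4ra: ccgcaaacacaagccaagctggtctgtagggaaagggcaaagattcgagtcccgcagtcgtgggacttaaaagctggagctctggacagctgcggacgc
Il6st: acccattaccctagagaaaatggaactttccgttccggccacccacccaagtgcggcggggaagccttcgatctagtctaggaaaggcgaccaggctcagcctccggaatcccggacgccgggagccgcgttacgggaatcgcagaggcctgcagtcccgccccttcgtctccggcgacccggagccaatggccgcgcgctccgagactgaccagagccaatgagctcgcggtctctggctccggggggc
Ifngr2: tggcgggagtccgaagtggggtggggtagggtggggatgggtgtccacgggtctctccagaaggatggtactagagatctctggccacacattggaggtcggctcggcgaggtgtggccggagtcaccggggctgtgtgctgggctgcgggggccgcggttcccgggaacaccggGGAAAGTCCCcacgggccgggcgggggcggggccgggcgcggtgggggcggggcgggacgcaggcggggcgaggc
Il22ra1: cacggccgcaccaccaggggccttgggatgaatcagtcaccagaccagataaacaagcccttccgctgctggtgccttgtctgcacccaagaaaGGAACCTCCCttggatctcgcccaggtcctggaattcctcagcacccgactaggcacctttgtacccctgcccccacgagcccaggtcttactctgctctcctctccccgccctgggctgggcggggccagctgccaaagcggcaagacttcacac

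RefSeq promoters were at hand for 8 of the 10 members (not Il10rb and Il17ra) and were searched on both strands from 250 bases before to 50 bases after the RefSeq start. For NF-κB only the form GGGANNTTCC was searched, where N is any base, so that sites of other forms would be missed. This motif was found in 482 of 32851 promoters of that length (1.47%) and in 2 of the 8 members. In Ifngr2 it lay at chr16:91546984-91546993, 75 bases before the start, and in Il22ra1 at chr4:135728003-135728012, 156 bases before the start. The STAT dimer motif TTCNNNGAA was found in 8.3% of all promoters and the interferon-stimulated response core GAAANNGAAA in 3.44%, and each in 0 of the 8 members. The motifs can overlap and a match is a description of letters, not of a bound site. Over 250 bases the share of C and G was 59.6% for Il4ra, 66% for Il6st, 74% for Ifngr2 and 62.4% for Il22ra1, against a median of 52.4% and an upper quartile of 61.2% over all promoters. In the same order they held 17, 26, 25 and 9 CpG dinucleotides, against a median of 6. For Il4ra these 250 bases run up to the RefSeq start, and only the first 99 of them are printed above.

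In the control organoids Ifngr1 was by far the most abundant of the 10 transcripts. QuantSeq libraries count 1 tag near the poly(A) end of a transcript, so that levels in CPM do not scale with gene length. Ifngr1 stood at 460 ± 40.0 CPM (SD, n = 4), which was 66.4% of the sum over the 10 genes. Il17ra followed at 52.9 ± 3.20 CPM, Il4ra at 46.8 ± 8.25 CPM, Il10rb at 43.0 ± 6.14 CPM and Ifngr2 at 34.1 ± 7.39 CPM, and these 4 overlapped from neighbour to neighbour. Il17rc (23.2 ± 3.11 CPM), Il6st (13.9 ± 5.41 CPM) and Il13ra1 (12.2 ± 3.92 CPM) came next. At the bottom, Ifnlr1 (4.68 ± 1.24 CPM) and Il22ra1 (2.22 ± 1.99 CPM) were near what a few counts are worth in the shallow libraries. Among neighbours, the libraries did not overlap only between Ifngr1 and Il17ra, between Ifngr2 and Il17rc, and between Il13ra1 and Ifnlr1.

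With RANKL the order of the receptors changed. Il4ra moved to the second place at 185 ± 45.3 CPM, without overlap with Ifngr1 above it (674 ± 87.5 CPM) or Il17ra below it (62.1 ± 17.2 CPM). Il6st, at 40.7 ± 8.96 CPM, stood above Il13ra1 (19.0 ± 1.98 CPM) and Il17rc (14.9 ± 3.70 CPM). The summed level of the 10 genes was 652 to 736 CPM in the control libraries and 1063 to 1149 CPM in the RANKL libraries, and the share of Ifngr1 in it was 61% with RANKL. The plot of the members by library shows these levels.

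**Figure D1:**
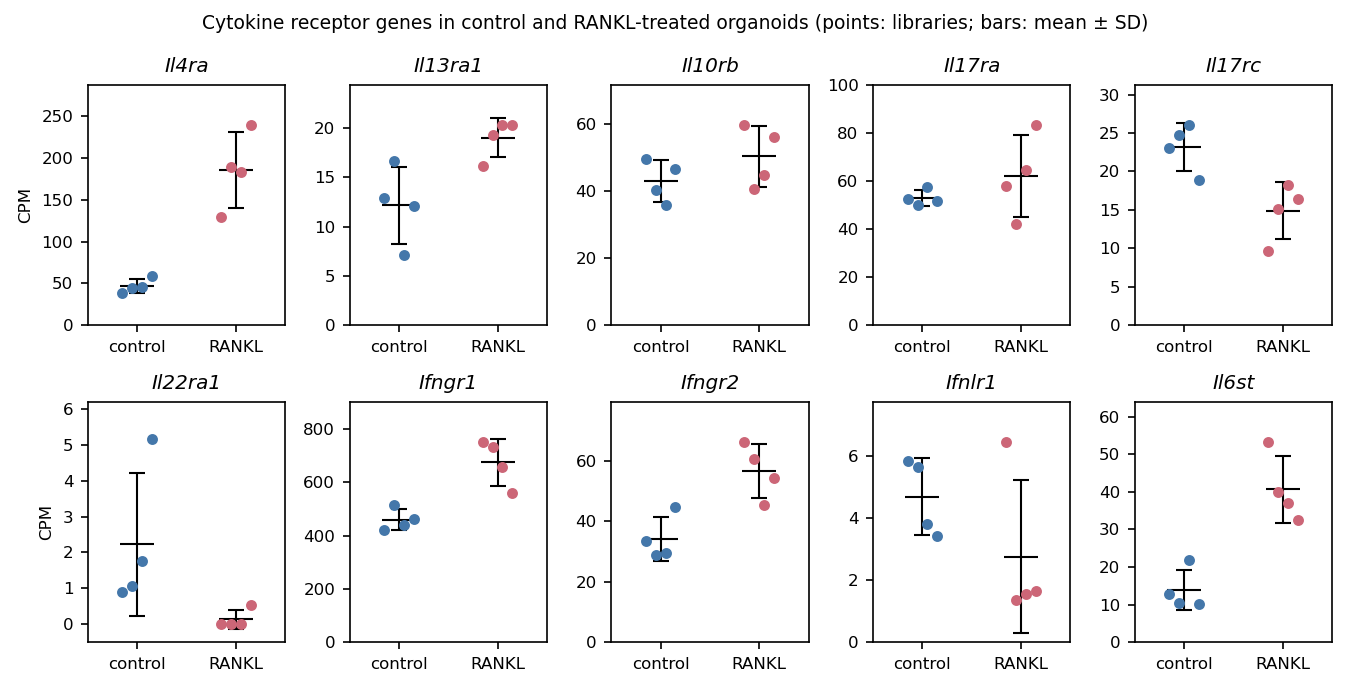
CPM (TMM-scaled counts, linear axes) of the 10 receptor genes in each library, control in blue and RANKL in red, with the mean ± SD over 4 libraries as black bars. The RANKL libraries lie above all control libraries for Il4ra, Ifngr1, Ifngr2 and Il6st and below them for Il17rc and Il22ra1, whose 3 RANKL libraries at 0 are drawn side by side.

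The comparison of RANKL with control asks which cytokine inputs gained or lost receptor transcripts. Of the 10 genes, 8 had enough counts to test, each at or above the filter's level in all 4 libraries of both groups, so that none entered through 1 group alone. Of these 8, 5 were higher with RANKL (Il4ra, Il6st, Ifngr2, Il13ra1 and Ifngr1), 1 was lower (Il17rc), and 2 did not pass the test (Il17ra and Il10rb), by edgeR's quasi-likelihood test with a Benjamini-Hochberg adjusted p of 0.05 over all 9971 genes tested. Of all the genes tested, 13.6% were higher and 12.4% lower. The median log2 fold change was 0.61 for the 8 receptors and 0.00 for all genes. In 4 of the 8 all RANKL libraries were above all control libraries, against 13.1% of the genes tested, and in 1 all were below, against 11.5%. Exact two-sided permutation tests over the 70 assignments of the libraries cannot give a p below 0.0286, and gave that value for Il4ra, Il6st, Ifngr1, Ifngr2, Il17rc and Il22ra1. The remaining exact p-values were 0.0571 for Il13ra1, 0.229 for Il10rb, 0.4 for Il17ra and 0.229 for Ifnlr1.

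Il4ra, the chain that binds IL-4 and serves the receptors of both type 2 cytokines, had the largest fitted rise of the members. It lies at chr7:125552120-125579474 (GRCm38, plus strand), 23954 bases from Il21r. Its level was 39.1, 44.3, 45.4 and 58.5 CPM in replicates 1 to 4 of the control group and, in the same order, 129, 189, 183 and 240 CPM in the RANKL group. The lowest RANKL library was above the highest control library. The log2 fold change was 2.10 ± 0.14 (SE), or 4.29-fold with a 95% interval of 3.51 to 5.26 (edgeR, adjusted p = 6.7e-13), and lay between 1.95 and 2.26 under every alternative. On the log2 scale its interval (1.81 to 2.40) meets the upper end of that of Il6st (0.98 to 1.85).

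Its partner Il13ra1, which binds IL-13 and completes the receptor found on epithelial cells, differed less. The gene is at chrX:36112110-36171259. Control libraries held 12.9, 16.6, 7.10 and 12.0 CPM and RANKL libraries 16.1, 19.3, 20.3 and 20.3 CPM, and control replicate 2 lay above RANKL replicate 1. The log2 fold change was 0.67 ± 0.24 (edgeR, adjusted p = 0.037), 1.59-fold with an interval of 1.14 to 2.23. The call was lost without control replicate 3 (log2 fold change 0.46, adjusted p = 0.13), without RANKL replicate 2 (0.68, adjusted p = 0.076), without RANKL replicate 3 (0.64, adjusted p = 0.097), without RANKL replicate 4 (0.64, adjusted p = 0.11), with DESeq2 (0.66, adjusted p = 0.16) and without the filter on low counts (0.63, adjusted p = 0.056).

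gp130, encoded by Il6st at chr13:112464070-112510086, is the signalling chain of the receptors for IL-6, IL-11, LIF and oncostatin M. It stood at 13.0, 10.5, 21.8 and 10.3 CPM in the control libraries and at 53.3, 39.9, 37.0 and 32.4 CPM in the RANKL libraries. Control replicate 3 was the highest of its group and still below every RANKL library. The log2 fold change was 1.41 ± 0.21, or 2.66-fold with an interval of 1.97 to 3.60 (edgeR, adjusted p = 5.6e-06).

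Both chains of the interferon-γ receptor rose. Ifngr1 (chr10:19591949-19610229), the ligand-binding chain, was at 422, 514, 441 and 461 CPM in control and at 751, 732, 657 and 558 CPM in RANKL libraries, without overlap. Its log2 fold change was 0.55 ± 0.10, 1.46-fold with an interval of 1.26 to 1.69 (edgeR, adjusted p = 0.00014). Ifngr2 (chr16:91547072-91565623), the chain that brings JAK2 to the complex, was at 33.6, 28.7, 29.4 and 44.7 CPM and at 66.2, 60.6, 45.4 and 54.4 CPM, where control replicate 4 came within 1 CPM of RANKL replicate 3 without crossing it. Its log2 fold change was 0.78 ± 0.16, 1.72-fold with an interval of 1.38 to 2.15 (edgeR, adjusted p = 0.0003).

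The chains of the IL-17 receptor did not move together. Il17rc (chr6:113471427-113483140), which with IL-17RA binds IL-17A and IL-17F, was at 23.0, 24.7, 26.1 and 18.9 CPM in the control libraries and at 9.69, 15.1, 18.3 and 16.5 CPM in the RANKL libraries. The groups did not overlap, with less than 1 CPM between control replicate 4 and RANKL replicate 3. The log2 fold change was -0.60 ± 0.20, 0.659 times the control level with an interval of 0.498 to 0.872 (edgeR, adjusted p = 0.024). The call was lost without RANKL replicate 1 (-0.52, adjusted p = 0.064), without RANKL replicate 2 (-0.58, adjusted p = 0.065), without RANKL replicate 4 (-0.63, adjusted p = 0.054), with DESeq2 (-0.61, adjusted p = 0.12) and without both shallowest libraries (-0.55, adjusted p = 0.053). Il17ra (chr6:120463247-120487559), the chain common to the IL-17 receptors, was at 52.5, 50.2, 57.5 and 51.6 CPM in control and at 58.1, 42.0, 64.7 and 83.5 CPM in RANKL libraries. Its RANKL libraries lay on both sides of the control libraries, and its fold of 1.19 had an interval of 0.956 to 1.48 (edgeR, adjusted p = 0.25).

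Il10rb (chr16:91406164-91425834), the shared chain of the receptors for IL-10, IL-22 and interferon-λ, did not pass the test. Its level was 49.4, 40.3, 35.7 and 46.4 CPM in control and 59.7, 40.6, 44.9 and 56.0 CPM in RANKL libraries, which overlapped. The log2 fold change was 0.21 ± 0.16, with an interval for the fold of 0.928 to 1.44 (edgeR, adjusted p = 0.35). It shares 569 exonic bases on its strand with Gm21970, which had 0 counts. The methods do not say how reads in shared bases were assigned, so that such reads may be missing from the level of Il10rb.

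The specific chains of the IL-22 and interferon-λ receptors were too low to test, and both had lower pooled levels with RANKL. Il22ra1 (chr4:135728172-135752140) and Ifnlr1 (chr4:135686287-135708181) are neighbours on chromosome 4, 19990 bases apart. Il22ra1 had 7, 4, 7 and 3 counts in the control libraries and 0, 0, 0 and 1 in the RANKL libraries. That is 21 counts (1.3 CPM of the pooled effective totals, exact Poisson interval 0.807 to 1.99) against 1 count (0.172 CPM, 0.00436 to 0.959), and a ratio of 0.132 with a counting interval of 0.00319 to 0.821. Every RANKL library was below every control library in CPM, but the counts of 0 each allow a level within the control range. Without the filter, edgeR gave Il22ra1 an adjusted p of 0.11, and DESeq2 0.14.

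Ifnlr1 had 46, 21, 15 and 2 counts in the control libraries and 4, 2, 3 and 3 in the RANKL libraries. These are 5.86, 5.64, 3.80 and 3.44 CPM against 6.46, 1.38, 1.57 and 1.65 CPM, and the groups overlapped through RANKL replicate 1, whose 4 counts come from the shallowest RANKL library. The pooled levels were 5.21 CPM (4.16 to 6.46) and 2.07 CPM (1.07 to 3.61), a ratio of 0.396 with a counting interval of 0.197 to 0.729. Without the filter, edgeR gave a log2 fold change of -1.30 (adjusted p = 0.057), and DESeq2 -1.13 (adjusted p = 0.28). Ifnlr1 passed the filter and the threshold without control replicate 3 (-1.41, adjusted p = 0.018), without control replicate 4 (-1.29, adjusted p = 0.036) and without both shallowest libraries (-1.73, adjusted p = 0.011). It passed the filter but not the threshold without RANKL replicate 2 (-1.10, adjusted p = 0.12), RANKL replicate 3 (-1.09, adjusted p = 0.14) or RANKL replicate 4 (-1.13, adjusted p = 0.13).

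The plot of fold changes sets these members beside the other tested receptor subunits.

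**Figure D2:**
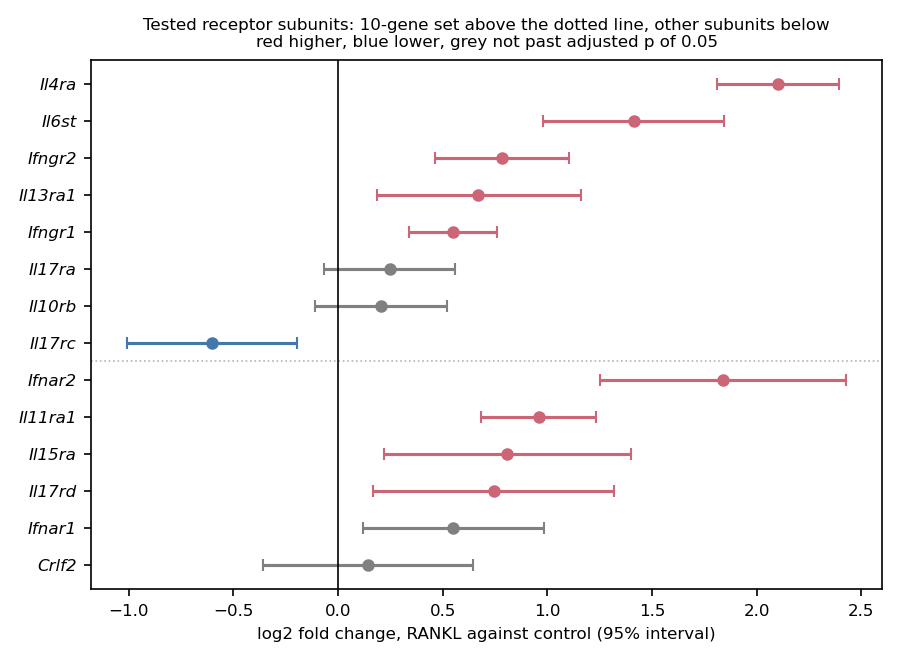
Log2 fold change of RANKL against control with its 95% interval (edgeR) for the 8 members tested, above the dotted line, and the 6 other receptor subunits tested, below it. Red marks genes higher, blue lower and grey not past the adjusted p of 0.05. Il4ra at 2.10 lies farthest to the right, and Il17rc at -0.60 is the only gene to the left with its interval.

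Ratios of the chains of a receptor within a library do not depend on the scaling between libraries, and are given as a description. The ratio of Il4ra to Il13ra1 counts was 2.66 to 6.39 in the control libraries and 8 to 11.8 in the RANKL libraries, which did not overlap. For Il17rc to Il17ra it was 0.367 to 0.492 in control and 0.167 to 0.361 with RANKL, again without overlap. The nearest libraries of the groups had counting intervals that overlap. For Il17rc to Il17ra these were control replicate 4 (0.367, interval 0.166 to 0.753) and RANKL replicate 2 (0.361, 0.211 to 0.596). For Il4ra to Il13ra1 they were control replicate 3 (6.39, 4.28 to 9.89) and RANKL replicate 1 (8, 4.13 to 17.3). By the ratios themselves, transcripts of both pairs were less balanced between their chains in the RANKL libraries, towards Il4ra and towards Il17ra. The interferon-γ receptor was different. Ifngr1 to Ifngr2 was 10.3 to 17.9 in control and 10.3 to 14.5 with RANKL, so that the chains rose at overlapping ratios. Ifnlr1 to Il10rb was 0.0741 to 0.14 in control and 0.0294 to 0.108 with RANKL, which overlapped. Il22ra1 to Il10rb was 0.018 to 0.111 in control and 0 to 0.0098 with RANKL, with 1 Il22ra1 count in all RANKL libraries.

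**Figure D3:**
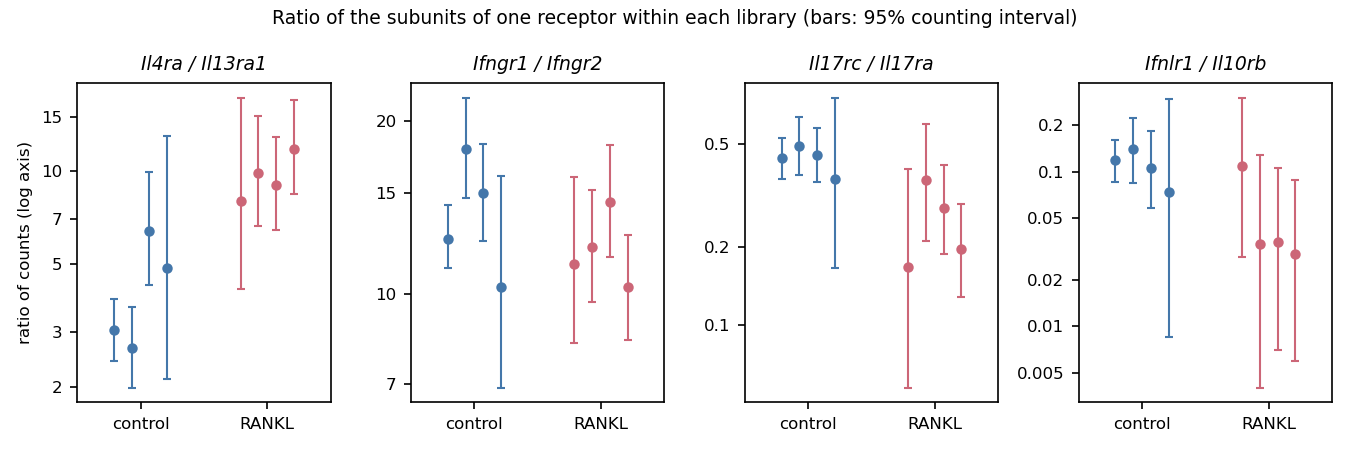
Ratio of the counts of the chains of a receptor in each library (log axes that differ between panels), control in blue and RANKL in red, with the 95% counting interval of each ratio. The RANKL ratios of Il4ra to Il13ra1 (8 to 11.8) lie above the control ratios (2.66 to 6.39), those of Il17rc to Il17ra lie below, and those of the other pairs overlap. The pair of Il22ra1 and Il10rb is left out because 3 of its ratios are 0.

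Among 41 other cytokine receptor subunits, 6 had enough counts to test, of which 4 were higher and 0 lower, with a median log2 fold change of 0.78. Over all genes tested the shares were 13.6% higher and 12.4% lower, here and for the lists below. Some of the 41 can join a member in a receptor, or belong to its family, and the following are given. Il11ra1, the chain that binds IL-11 and signals through gp130, was at 44.0 ± 7.08 CPM in controls against 84.5 ± 6.47 CPM with RANKL (log2 fold change 0.96 ± 0.14, edgeR, adjusted p = 2e-06). The groups did not overlap. Il6ra, the chain for IL-6, had 15 counts in control and 7 in RANKL libraries, Lifr 3 and 1, and Osmr 2 and 1, all too few to test. Also untested were Il17re (44 counts in control and 7 in RANKL libraries), Il17rb (51 and 10) and Il20rb (71 and 31). In the same order their means were 3.0 and 1.2 CPM, 2.3 and 2.3 CPM, and 4.4 and 5.5 CPM. The groups overlapped for each of them. Il17rd, a relative of the IL-17 receptor chains, was higher with overlap (0.75 ± 0.28, adjusted p = 0.0498 with edgeR), and lost the call without control replicate 1 (adjusted p = 0.17), control replicate 3 (0.077) or any 1 RANKL library (0.062 to 0.13). In all, 12 of 16 alternatives ended it, among them DESeq2 (adjusted p = 0.28), no filter (0.16), DESeq2 size factors in edgeR (0.0509) and the fit without both shallowest libraries (0.0533). Il10ra, the specific chain for IL-10, and Il13ra2, the decoy receptor of IL-13, had 0 counts in all 8 libraries, which allows up to 0.137 CPM over the pooled libraries. Il2rg, with which IL-4Rα forms the other IL-4 receptor, had 1 count in each group.

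Ifnar1, a chain of the type I interferon receptor, lies between Il10rb and Ifngr2 on chromosome 16. Ifnar2, the chain of that receptor that binds the ligand, was at 4.26 ± 1.51 CPM in controls against 15.6 ± 5.03 CPM with RANKL, without overlap (log2 fold change 1.84 ± 0.29, edgeR, adjusted p = 1.1e-05). Like Il10rb it shares exonic bases with Gm21970, with the same limit on its level. Ifnar1 was at 17.8 ± 3.74 CPM and 24.4 ± 5.74 CPM (0.55 ± 0.21) and did not pass (edgeR, adjusted p = 0.052), but passed without control replicate 3 (0.74, adjusted p = 0.0079). Il15ra, which presents IL-15 to lymphocytes, was higher with overlap (0.81 ± 0.29, edgeR, adjusted p = 0.038), and lost the call without control replicate 2 (adjusted p = 0.12), control replicate 3 (0.054), RANKL replicate 3 (0.23) or RANKL replicate 4 (0.13), with DESeq2 (0.2) and without the filter (0.071).

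Many cytokine genes were not detected in the organoids. The list of 40 cytokine genes also holds cytokines that no member binds. Of these 40, 39 were in the table and 21 had 0 counts in all 8 libraries, among them Il4, Il13, Il10, Il22, Il17a, Il17f, Ifng, Ifnl2, Ifnl3 and Il6. Only 4 had enough counts to test, and 3 of these rose, each of which was below the filter's 5.39 CPM in every control library and so was tested through the RANKL libraries. Csf1, the growth factor of macrophages, had 5 counts in control, all in control replicate 1, and 69 with RANKL (12.7 ± 3.06 CPM). Il34, the other ligand of the same receptor, was at 3.00 ± 0.70 CPM and 20.2 ± 1.06 CPM (log2 fold change 2.75 ± 0.27, edgeR, adjusted p = 1.9e-09). Il1rn, the antagonist of the IL-1 receptor, was at 1.43 ± 1.12 CPM and 16.2 ± 4.41 CPM (3.07 ± 0.34, edgeR, adjusted p = 2.3e-08). None of these 3 proteins is a ligand of a member. Among ligands of the gp130 receptors, Il11 had 10 counts in control and 4 in RANKL libraries, Lif 6 and 1, and Osm 0 and 1.

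Of 24 signal transducers downstream of the receptors, 20 were tested. Over all genes tested, 13.6% were higher and 12.4% lower. Of these 20 transducers, 8 were higher and 0 lower, with a median log2 fold change of 0.27. Those that rose include kinases and STATs (Jak1, Jak2, Tyk2, Stat3 and Stat5a) and the regulators Socs1, Socs2 and Traf3, while the listed inhibitors Pias1, Pias3, Ptpn2, Ptpn6 and Ptpn11 did not pass. Jak1 was barely past the threshold, with overlapping groups (0.32 ± 0.12, edgeR, adjusted p = 0.0497). Socs1, which blocks JAK kinases at the interferon-γ and IL-4 receptors, was at 1.41 ± 1.21 CPM in controls against 22.7 ± 5.92 CPM with RANKL (3.50 ± 0.33, edgeR, adjusted p = 9.7e-10). Like the ligands above, it was tested through the RANKL libraries alone. Socs2, best known as an inhibitor of growth hormone signalling, was at 81.9 ± 3.63 CPM and 166 ± 11.9 CPM (1.03 ± 0.11, adjusted p = 9e-09). Stat5a, a transcription factor of many cytokine receptors, was at 7.24 ± 2.38 CPM and 18.7 ± 1.62 CPM (2.82-fold, interval 1.99 to 4.01, adjusted p = 2.5e-05). Traf3, an adaptor that restrains non-canonical NF-κB signalling and IL-17 receptor signalling, was at 30.4 ± 4.59 CPM and 64.7 ± 7.52 CPM (1.06 ± 0.15, adjusted p = 2e-06). For none of Socs1, Socs2, Stat5a and Traf3 did the groups overlap.

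The STATs of the IL-4 receptor and of gp130 were looked at after the values had been seen. Stat6, through which IL-4Rα signals, was at 60.7 ± 8.21 CPM in controls against 54.9 ± 4.22 CPM with RANKL, and did not pass (log2 fold change -0.13, interval -0.40 to 0.15, edgeR, adjusted p = 0.53). Stat3, used by gp130 and the IL-22 receptor, was higher at 80.7 ± 8.21 CPM and 113 ± 10.3 CPM (0.47 ± 0.12, adjusted p = 0.0033).

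Target genes of the cytokines were listed for 5 inputs, as 61 genes in all, of which 20 had enough counts to test. Of these, 11 were higher and 1 was lower, and the median log2 fold change was 0.55. Among the 11, Ccl20, Socs1 and Irf7 were below the filter's 5.39 CPM in every control library. They were tested through the RANKL libraries alone. Of all the genes tested, 13.6% were higher and 12.4% lower. Many of the listed targets are also targets of NF-κB, which acts downstream of RANK, and its part in these changes was not tested. Of 12 IL-22 targets, 4 were tested and 2 rose. Reg3g, a secreted antimicrobial lectin, was at 86.0 ± 8.01 CPM in controls against 1015 ± 16.4 CPM with RANKL (3.55 ± 0.11, edgeR, adjusted p = 9.3e-22). Bcl3, a nuclear regulator of NF-κB, was at 38.4 ± 5.46 CPM and 279 ± 24.3 CPM (2.83 ± 0.12, adjusted p = 8.5e-18). The related lectins Reg3b (0.10, interval -0.21 to 0.42, adjusted p = 0.67) and Reg3a (0.11, -0.10 to 0.33, adjusted p = 0.47) did not pass, and their intervals lie below that of Reg3g (3.33 to 3.76). Steap4, Saa1 and Saa2 were at 0 in all libraries.

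Of 10 IL-17 targets, 5 were tested, 2 rose and 1 fell. Ccl20, a chemokine for lymphocytes and dendritic cells, was at 2.87 ± 1.01 CPM in controls against 55.9 ± 15.7 CPM with RANKL (4.28 ± 0.25, edgeR, adjusted p = 1e-14), and was tested through the RANKL libraries alone. Nox1, an epithelial NADPH oxidase, was at 10.8 ± 4.22 CPM and 32.2 ± 6.88 CPM (1.40 ± 0.21, adjusted p = 7.3e-06). Pigr, the receptor that carries IgA across the epithelium, fell from 1352 ± 71.4 CPM to 1056 ± 90.5 CPM without overlap (-0.36 ± 0.09, adjusted p = 0.0042).

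Of 16 interferon-γ targets, 7 were tested, 5 rose and 0 fell. Irf1, a transcription factor of the interferon response, was at 44.9 ± 1.48 CPM in controls against 138 ± 7.60 CPM with RANKL (3.02-fold, interval 2.57 to 3.55, edgeR, adjusted p = 2.2e-12). Psmb9, a subunit of the immunoproteasome, was at 3.73 ± 3.40 CPM and 8.18 ± 2.56 CPM with overlap (1.59 ± 0.40, adjusted p = 0.003), and B2m, the light chain of MHC class I, at 161 ± 17.2 CPM and 223 ± 24.7 CPM (0.49 ± 0.11, adjusted p = 0.001). Socs1 and Psmb10 were the others, while Tap1 did not pass and Ido1 was at 0. Of 15 interferon-λ targets, 4 were tested and 2 rose, Ddx58, a sensor of viral RNA (1.04 ± 0.21, edgeR, adjusted p = 0.00027), and Irf7 (0.93 ± 0.32, adjusted p = 0.028), of which Irf7 was tested through the RANKL libraries alone and lost the call without control replicate 3 (adjusted p = 0.053), RANKL replicate 2 (0.09) or RANKL replicate 3 (0.18), without both shallowest libraries (0.0525), without the filter (0.092) and with DESeq2 (0.17). Of 10 targets of IL-4 and IL-13, only Socs1 was tested. Retnlb, Ccl26, Chil3 and Chil4 were at 0 in all libraries, which allows up to 0.137 CPM over the pooled libraries, so that these readouts were not detected.

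**Figure D4:**
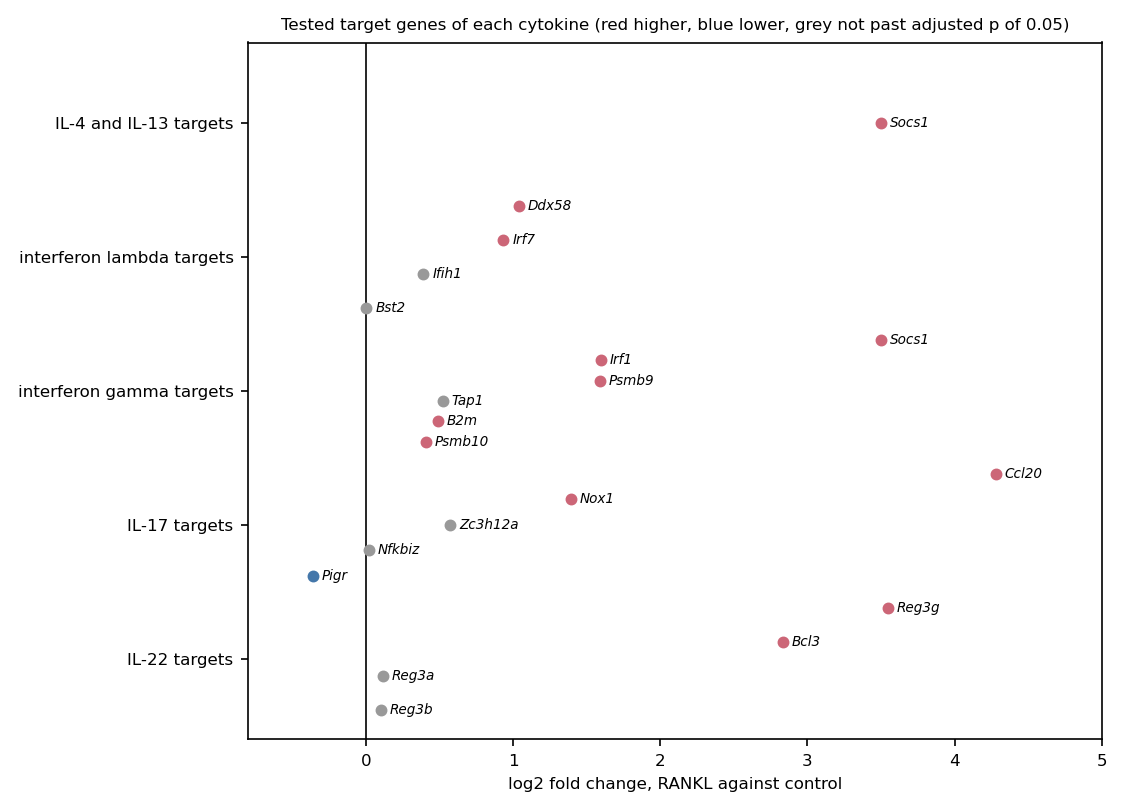
Log2 fold change of RANKL against control (edgeR) for the tested target genes shown, 1 row of points for each of the 5 lists, with red for higher, blue for lower and grey for not past the adjusted p of 0.05. Ccl20 at 4.28, Reg3g at 3.55 and Socs1 at 3.50, which stands in 2 lists, lie farthest to the right, and Pigr at -0.36 is the only gene that was lower.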

How the data were processed

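Per the methods, the authors trimmed reads by BBDuk, filtered out abundant sequences by bowtie2, mapped what was left to GRCm38 by STAR and ran featureCounts in strand-specific mode on Ensembl genes. The table holds the raw, unnormalized counts as deposited. Reads were single, of 50 bases, and molecular identifiers are not mentioned.

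Symbols were found by identifier for 54409 of 54532 genes. Coordinates are from GENCODE M21 and promoters from RefSeq, both on GRCm38. edgeR 4.0.16 in R 4.3.3 (TMM factors, edgeR's filter on low counts, quasi-likelihood test, Benjamini-Hochberg over 9971 genes) compared all 4 RANKL with all 4 control libraries. The study's methods name DESeq2, which was an alternative (1.42.0), beside limma-voom 3.58.1, other scalings and filters, the replicate number as a block and libraries left out. Shares of genes whose groups do not overlap are over the 9960 tested genes with a symbol of their own. Counts of same-condition libraries differed by more than sampling noise, and each was used as 1 replicate. The steps were tested on simulated data.

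The members and gene lists were chosen with earlier results of these data known. Beside all members, the text names, per list, up to 4 genes past the threshold with a mean of 5 CPM or more, taken by size of change, and tested partner chains of the members. Il6ra, Lifr, Osmr, Il2rg, Spib, Tnfaip2, Sox8, Jak1, Jak2, Tyk2, Pias1, Pias3, Ptpn2, Ptpn6, Ptpn11, Stat3, Stat6, Reg3a, Reg3b, Tap1, Psmb10 and the genes named at 0 were added after values were seen. So were Il17re, Il17rb, Il20rb, Csf1r, Itgam, Lyz2, Fcer1g, Il11, Lif and Osm. Some listed genes are counted in their lists but not reported here by name.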

Additional observations from a re-analysis of the deposited data

Results flagged for a closer look

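In 3 of 64 groups of 4 libraries, 1 library stood apart from the other 3 by more than Dixon's 95% critical value, where chance gives about 1 in 20, or 3.2. That chance rate holds for continuous values of a normal spread, not for groups with counts at or near 0. Each flagged value rests on few counts. For Il22ra1 and Csf1 the other libraries of the group were all at 0, so that any count above 0 in 1 library would be flagged. Il22ra1 was at 0.549 CPM (1 count) in RANKL replicate 4 and at 0 in the other RANKL libraries. Ifnlr1 was at 6.46 CPM in RANKL replicate 1, where 4 counts stand in a library of 613135, against at most 1.65 CPM in the others of its group. Csf1 was at 0.637 CPM (5 counts) in control replicate 1, the deepest library, and at 0 in the other control libraries.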

How the results depend on the processing

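The directions of the 8 tested receptors were the same under all alternatives that could test them, and Il4ra, Ifngr1 and Ifngr2 kept their calls under each of them, Il6st under each that could test it. Of the members, 3 were higher when at least 10 counts were required in every library (Il6st and Il13ra1 were then not tested), and 0 were lower then, with DESeq2 and at an adjusted p of 0.01. Leaving out each library in turn gave 4 to 5 members higher and 0 to 2 lower. Without control replicate 4 and RANKL replicate 1, 1 was lower, Ifnlr1 in place of Il17rc (edgeR, adjusted p = 0.053). Of the other cytokine pathway genes, 15 were higher, or 8 with at least 10 counts in every library, and 0 lower, or 2 without the filter (Il1rap and Il18), 1 with the replicate block and 1 without both shallowest libraries (Il18 in both), and 0 to 1 with a library left out. Of the target genes, 11 were higher, or 6 with at least 10 counts in every library. Of all genes tested, 2587 passed, or 1636 at an adjusted p of 0.01, and 1853 (without RANKL replicate 4) to 2601 with a library left out. Libraries with the same replicate number were not treated as pairs in the main fit. The correlations of their deviations were -0.0343 to 0.104, against -0.138 to 0.0877 for control and RANKL libraries of different number. Of 8 libraries, 3 correlated best with their own number. At these depths such low correlations cannot decide whether same-numbered libraries share a culture or preparation. The replicate block gave 2610 calls and the same 5 higher and 1 lower members, but ended the call of Il17rd (adjusted p = 0.14). Scaling by library totals alone moved the median of all genes by 0.025 on the log2 scale. Depth limits Il22ra1 and Ifnlr1 most, with 1 and 12 counts in all RANKL libraries.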
